A study of Homo sapiens with 12 samples.

Results

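The clustered protocadherin genes are 3 neighbouring gene clusters on human chromosome 5, named alpha, beta and gamma. They were taken from the deposited table by gene symbol alone (PCDHA, PCDHAC, PCDHB, PCDHGA, PCDHGB or PCDHGC followed by a number), which left out their pseudogenes and used no measured value. This gave 53 of 52889 gene entries, with 15 in the alpha, 16 in the beta and 22 in the gamma cluster. Accessibility was measured by ATAC-Seq, in which the Tn5 transposase cuts open DNA in nuclei and attaches adapters, in the line HEK293T, which derives from human embryonic kidney. The 12 samples were labelled as biological replicates, with 3 in each of 4 groups, and whether these were separate cultures is not given in the sources used here, so that p-values measure only the spread between these samples. Mock cells carried the empty vector pSBTet-GP, an inducible Sleeping Beauty vector. Cells of day 0 (d0) carried constitutive MLL-AF4, the fusion protein of the t(4;11) translocation of leukemia. Cells of day 3 (d3) carried constitutive MLL-AF4 plus the inducible reciprocal fusion AF4-MLL, switched on with 1 µg/ml doxycycline for 48 h. Cells of day 28 (d28) have the same genotype as d0 in the labels. That AF4-MLL had been switched on and off again before d28 is known only from the study's description. The MLL-AF4 cells were a stably transfected pool and AF4-MLL was brought in by transient transfection, so the d3 and d28 cells were not started from a single clone. The study proposes that clonal evolution followed, and clonality was not measured here. The labels give the doxycycline protocol for every sample. In the study's description of its expression experiment, to which the setting of this one is called similar, d0 cells were taken before AF4-MLL transfection and induction. Whether Mock cells received doxycycline is not given in the sources used here.

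Clustered protocadherins are adhesion proteins of the cell surface, and they are known above all from neurons. There, each cell switches on a small and largely random choice of the isoforms, and their combination gives the cell a surface identity used in self-recognition of its branches. In the alpha and gamma clusters every isoform has its own promoter and large variable exon, which is spliced to constant exons shared by the whole cluster, whereas each beta gene is a single exon without constant exons. Promoter choice depends on DNA methylation and on loops made by CTCF and cohesin between promoters and distant enhancers. Most of the promoters carry a conserved sequence element with the core CGCT. The last genes of the alpha and gamma clusters are called C-type (PCDHAC1, PCDHAC2, PCDHGC3, PCDHGC4 and PCDHGC5). They are expressed more uniformly than the other isoforms.

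Promoters of genes with the highest levels in their cluster, or past the threshold modelled on the study's, are shown first, with the element in its setting. The sequences are from RefSeq on GRCh38.p14, the windows are on the plus strand, and 47 of the 53 genes had a promoter of 300 bases (250 before and 50 after the start of the gene). The motif searched was ATGTCGCT for alpha, GTGGCGCT for beta and GCCGCTGT for gamma, on both strands, with the letters chosen with the sequences in view, so that a difference between the clusters in these motifs follows from the choice. Each holds the core CGCT, so a match of one of the 3 is also a match of the core. In the windows below, capitals mark the motif of the cluster or, for PCDHA11 and PCDHGA11, the core alone.
PCDHA4 at chr5:140806975-140807014: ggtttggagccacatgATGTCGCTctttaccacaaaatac
PCDHA10 at chr5:140855837-140855876: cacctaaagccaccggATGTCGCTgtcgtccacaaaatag
PCDHA11 at chr5:140868883-140868922: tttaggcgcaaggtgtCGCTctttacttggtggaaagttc
PCDHB2 at chr5:141094540-141094579: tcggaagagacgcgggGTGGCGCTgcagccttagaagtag
PCDHB13 at chr5:141213861-141213900: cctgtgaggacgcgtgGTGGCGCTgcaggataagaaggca
PCDHGB6 at chr5:141407922-141407961: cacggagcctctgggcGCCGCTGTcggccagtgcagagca
PCDHGA11 at chr5:141420972-141421011: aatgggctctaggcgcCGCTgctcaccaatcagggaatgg
PCDHGC3 at chr5:141475878-141475917: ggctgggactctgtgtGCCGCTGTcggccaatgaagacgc
PCDHGC4 at chr5:141484950-141484989: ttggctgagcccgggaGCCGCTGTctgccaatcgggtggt

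The alpha motif stood in 9 of 13 alpha promoters and in 0.234% of all 35116 promoters of the table. The beta motif stood in 13 of 14 beta promoters, all except that of PCDHB1, and in 1.15% of all promoters. The gamma motif stood in 11 of 20 gamma promoters and in 1.63% of all promoters. No promoter of one cluster held the motif of another. Since the letters were chosen with these sequences in view, neither this nor the higher share than in all promoters is a test. The core CGCT was in 46 of the 47 promoters, all except that of PCDHA9, but it was also in 70.0% of all promoters. Where found, the motif began at a median position of -52 bases from the gene start in the alpha cluster (-85 to -42), at -65 in the beta cluster (-83 to -1) and at -67 in the gamma cluster (-97 to -42).

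The promoters of PCDHAC1, a C-type gene, and of PCDHB1 had none of the 3 motifs. They are given whole beside that of PCDHA10, which has the alpha motif in capitals, since PCDHAC1 and PCDHA10 differ in base composition.
PCDHAC1 at chr5:140926049-140926348: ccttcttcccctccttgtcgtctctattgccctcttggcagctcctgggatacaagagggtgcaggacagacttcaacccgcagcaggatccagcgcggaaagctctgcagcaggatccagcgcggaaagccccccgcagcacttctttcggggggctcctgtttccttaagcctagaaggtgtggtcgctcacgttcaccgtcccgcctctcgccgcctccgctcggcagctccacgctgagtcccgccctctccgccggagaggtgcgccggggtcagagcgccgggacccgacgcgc
PCDHA10 at chr5:140855647-140855946: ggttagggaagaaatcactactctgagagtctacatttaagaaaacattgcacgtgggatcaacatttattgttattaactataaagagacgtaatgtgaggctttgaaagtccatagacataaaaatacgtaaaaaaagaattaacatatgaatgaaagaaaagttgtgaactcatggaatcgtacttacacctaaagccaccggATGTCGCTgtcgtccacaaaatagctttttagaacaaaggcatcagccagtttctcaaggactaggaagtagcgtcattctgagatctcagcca
PCDHB1 at chr5:141051124-141051423: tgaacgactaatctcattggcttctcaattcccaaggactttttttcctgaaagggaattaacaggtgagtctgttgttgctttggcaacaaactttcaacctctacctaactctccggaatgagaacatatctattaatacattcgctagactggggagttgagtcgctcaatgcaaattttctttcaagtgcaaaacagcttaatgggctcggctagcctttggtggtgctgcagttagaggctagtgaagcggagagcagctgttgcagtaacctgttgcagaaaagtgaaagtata
The promoter of PCDHAC1 was 66.0% G and C with 27 CG pairs, that of PCDHA10 was 37.3% with 8 and that of PCDHB1 43.0% with 6. The 4 C-type promoters in the table had a median of 61.8% G and C (59.0% to 66.0%). The 11 other alpha promoters had a median of 36.0%, the 14 beta promoters 40.8% and the 18 other gamma promoters 41.0%, whereas the median of all promoters was 58.7%. The C-type promoters did not overlap with those of the other members, of which the highest was at 51.3%.

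The depth of the libraries limits what can be said about single genes. The total count per sample ranged from 353430 to 3539937. The share on the 37 mitochondrially encoded genes was on average 26.8% in Mock, 44.0% in d0, 39.4% in d3 and 65.5% in d28 cells. The 53 genes together held only 1945 counts in the 12 samples, with 77 to 343 per sample. A single gene held 6 to 148 counts over all samples, with a median of 30, and the highest count of any gene in any sample was 25. No gene was at 0 in every sample, and 14.3% of all single values were 0. The number of genes with a count was 34 to 49 in Mock, 41 to 46 in d0, 47 to 51 in d3 and 43 to 53 in d28 samples. Thinned to the number of counts of the shallowest sample, 34.0 to 44.9 genes were expected to have a count in each sample. A value of 0 in a sample allows up to 3 counts at its depth, and it does not show closed chromatin. All 11 genes listed as markers of HEK293T cells had counts, but so had all 13 listed markers of blood cells, neurons, astrocytes and fibroblasts, so that this list does not identify the cell type in these counts.

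Where in a gene the reads lie cannot be told from the table, since 1 number is given per gene. In RefSeq, PCDHA1 spans 226.208 kb and encloses the other 14 alpha genes, but it held 23 counts while 11 of the enclosed genes held more, up to 148 for PCDHAC1. PCDHGA1 spans 182.462 kb and encloses the other 21 gamma genes, and it held 59 counts, with 3 of the enclosed genes above it. Reads in the shared part of these spans were therefore not counted on every gene that covers them. The length that was counted for an alpha or gamma gene is unknown, and their levels are compared between samples only and not between genes.

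Summed over all 53 genes, the share of counts outside the mitochondrially encoded genes differed little between the 4 groups. It was 0.0330% ± 0.00476 in Mock, 0.0326% ± 0.00131 in d0, 0.0294% ± 0.00152 in d3 and 0.0313% ± 0.000587 in d28 cells (SD, n = 3 each). The summed count normalized by TMM factors, the scaling of edgeR that sets most genes at no change, was 157 ± 22.4 in Mock, 162 ± 6.30 in d0, 148 ± 9.69 in d3 and 177 ± 3.51 in d28 cells. The 3 d28 samples, at 174.7, 175.1 and 181.0, lay above all d0 and d3 samples, which reached up to 165.8 and 158.6, but overlapped with the Mock samples, which reached 182.6. The d28 sum was thus 1.10-fold that of d0 and 1.19-fold that of d3 with these factors. As a share of counts outside the mitochondrially encoded genes, a scaling added after seeing the data, the ratios were 0.962 and 1.07 and the samples overlapped, while all d3 samples lay below all d0 samples, at 0.903-fold. With the mitochondrially encoded genes left out before the TMM factors were computed, d28 stayed above d0 and d3 without overlap, at 1.11-fold and 1.20-fold. With the total counts as the only scaling it lay below both without overlap, at 0.590-fold and 0.606-fold, so that the direction of this difference depended on the scaling. The d28 group also had the widest range of depth, and the part of depth in the result was not tested.

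With TMM factors the alpha cluster showed no separation of the groups. Its summed normalized count was 62.9, 51.6 and 55.4 in Mock replicates 1, 2 and 3, and 47.3, 66.7 and 57.0 in d0. It was 61.6, 54.8 and 53.1 in d3, and 70.2, 68.2 and 58.2 in d28. The means were 56.6 ± 5.75, 57.0 ± 9.69, 56.5 ± 4.50 and 65.5 ± 6.39, and the samples overlapped in all 6 comparisons. From the pooled counts, the ratio to Mock was 1.00 in d0 (exact 95% interval 0.772 to 1.30), 1.00 in d3 (0.794 to 1.27) and 1.20 in d28 (0.956 to 1.50). With the total counts as the only scaling, the d0, d3 and d28 samples lay below all Mock samples, at 0.734-fold, 0.773-fold and 0.454-fold. The d28 samples then also lay below all d0 and all d3 samples, at 0.619-fold and 0.587-fold. As a share of counts outside the mitochondrially encoded genes, the d0, d3 and d28 samples overlapped with Mock, at 0.964-fold, 0.941-fold and 0.972-fold. Intervals and limits for counts of 0 cover counting error only. In bulk samples, fewer cells with an open gene and less opening per cell cannot be told apart.

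The beta cluster held 37.6 ± 6.97 normalized counts in Mock, 45.5 ± 7.76 in d0, 37.0 ± 2.73 in d3 and 46.1 ± 6.40 in d28 cells. The d3 samples were close together at 40.04, 35.9 and 34.9. The d28 samples were at 47.0, 52.0 and 39.3, so that the lowest d28 sample lay just within the range of d3. The pooled ratio of d28 to d3 was 1.28 (1.02 to 1.61), and it was the only one of the 18 ratios of a cluster between 2 groups whose counting interval did not include 1. The intervals were not adjusted for the number of ratios and leave out the spread between replicates, so this interval alone does not show a difference. With RLE factors in place of TMM factors the d28 samples lay above all d3 samples, at 1.28-fold, and as a share of counts outside the mitochondrially encoded genes they overlapped, at 1.11-fold. With the total counts as the only scaling the d28 samples lay below all d3 samples, at 0.633-fold.

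In the gamma cluster the replicates of Mock, d0 and d28 were far apart, and those of d3 were close together. The Mock samples were at 77.8, 52.9 and 57.2, the d0 samples at 68.4, 44.0 and 64.7, the d3 samples at 57.0, 55.6 and 51.5 and the d28 samples at 63.8, 54.8 and 77.2. The means were 62.6 ± 13.3, 59.0 ± 13.2, 54.7 ± 2.85 and 65.3 ± 11.2. The pooled ratio to Mock was 0.955 (0.743 to 1.23) in d0, 0.876 (0.697 to 1.10) in d3 and 1.01 (0.810 to 1.26) in d28, and the groups overlapped in all 6 comparisons with TMM factors. With the total counts as the only scaling, the d0, d3 and d28 samples lay below all Mock samples, at 0.691-fold, 0.677-fold and 0.411-fold. The d28 samples then also lay below all d3 samples, at 0.607-fold, and overlapped with d0. As a share of counts outside the mitochondrially encoded genes, the d0, d3 and d28 samples overlapped with Mock, at 0.904-fold, 0.823-fold and 0.878-fold.

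The share of the 53 genes' counts that fell on each cluster differed little as well. The alpha cluster took 36.3% ± 2.39 in Mock, 35.2% ± 4.98 in d0, 38.1% ± 0.705 in d3 and 37.0% ± 3.20 in d28 cells. The beta cluster took 24.0% ± 3.88, 28.1% ± 4.10, 24.9% ± 0.345 and 26.1% ± 3.61, and the gamma cluster 39.7% ± 3.20, 36.7% ± 9.05, 37.0% ± 1.04 and 36.9% ± 6.58. The largest difference between group means, in the beta cluster between Mock and d0, was of the size of the SD of these groups.

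Gene by gene, 46 of the 53 passed the filter for a test (group mean over 2 normalized counts, in any of the 4 groups), with 14 alpha, 15 beta and 17 gamma genes. None of them passed an adjusted p-value below 0.05 in any of the 6 comparisons with edgeR's quasi-likelihood test, with Benjamini-Hochberg adjustment over all 27579 tested genes. Of all tested genes, 0.609% passed in d0 vs Mock, 1.27% in d3 vs Mock, 1.45% in d28 vs Mock, 0.91% in d3 vs d0, 1.35% in d28 vs d0 and 0.37% in d28 vs d3, so that fewer than 1 gene in a set of this size would pass at these rates. The lowest adjusted p-value of a member was 0.457, 0.315, 0.426, 0.275, 0.335 and 0.477 in the same order. At an unadjusted p-value below 0.05 the number of members was 1, 1, 0, 1, 1 and 3, beside 9.65%, 11.3%, 12.5%, 11.4%, 12.6% and 8.83% of all tested genes. DESeq2, the tool the study used, called 0 of the 46 in each comparison, by adjusted and by unadjusted p-value. The SE of a member's log2 fold change had a median between 0.73 and 0.90 over the 6 comparisons, so that a 2-fold change of a single gene was mostly not detectable at this depth.

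A rule modelled on the study's filter, and called the study's rule here, asked for a change beyond 1 on the log2 scale with p below 0.05 before adjustment. The study's limit of more than 2 reads was applied to the mean normalized count in either group compared, and the p-values were those of edgeR. With DESeq2, 0 members passed it in each comparison. With edgeR it was passed by 1 member in d0 vs Mock (PCDHA13), 1 in d3 vs Mock (PCDHA11), 0 in d28 vs Mock, 1 in d3 vs d0 (PCDHA11), 1 in d28 vs d0 (PCDHGB6) and 2 in d28 vs d3 (PCDHA10 and PCDHB2). This is 0% to 4.35% of the 46 members, beside 4.39%, 4.18%, 4.8%, 3.68%, 4.53% and 3.05% of all tested genes. In d28 vs d3 the members' share lay above that of all genes, by a single gene, and in the other comparisons below it.

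PCDHA11 (ENSG00000249158, chr5:140868957-141012347 in RefSeq), an alpha isoform, had 1, 2 and 3 reads in the Mock samples and 1, 5 and 1 in the d0 samples. It had 12, 13 and 6 reads in d3 and 8, 5 and 4 in d28. After normalization these were 1.50, 2.58 and 5.54 in Mock, 1.24, 7.09 and 1.29 in d0, 9.24, 11.1 and 4.75 in d3 and 4.22, 3.52 and 5.82 in d28. Replicates 1 and 2 of d3 were above every other sample, but replicate 3 of d3 lay within the range of the other groups. The log2 fold change was 1.42 (SE 0.61) in d3 vs Mock with an adjusted p-value of 0.315 and 1.40 (SE 0.58) in d3 vs d0 with 0.275. In d28 vs d3 it was -0.95 (SE 0.46), with an adjusted p-value of 0.541. With single libraries left out, the change in d3 vs Mock lay between 1.12 and 1.96 and its adjusted p-value between 0.233 and 0.573, and the study's rule was no longer passed without Mock replicate 1, Mock replicate 2 or d3 replicate 2. In d3 vs d0 the rule was no longer passed without d0 replicate 1, d0 replicate 3 or d3 replicate 2.

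PCDHA10 (ENSG00000250120, chr5:140855897-141012347), the neighbouring alpha isoform, had close replicates. Its normalized counts were 5.99, 6.45 and 5.54 in Mock, 4.98, 4.25 and 5.18 in d0, 3.08, 4.28 and 5.55 in d3 and 7.91, 9.84 and 8.74 in d28. All 3 d28 samples lay above all 9 other samples. From reads of 4, 5 and 7 in d3 and 15, 14 and 6 in d28, the log2 fold change was 1.01 (SE 0.45), with an adjusted p-value of 0.477. With the total counts as the only scaling it was 0.017, where the median of all tested genes was shifted by -0.99. The study's rule was no longer passed without d3 replicate 1 or d28 replicate 2. In d28 vs Mock the change was 0.53 (SE 0.50), with an adjusted p-value of 0.718.

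PCDHA13 (ENSG00000239389), the last alpha isoform before the C-type genes, had no read in the 3 Mock samples. It had 2, 2 and 1 reads in d0, 1, 0 and 1 in d3 and 4, 2 and 0 in d28. No fold against Mock is given, since neither group exceeds 3 reads in a sample, and its adjusted p-value in d0 vs Mock was 0.457. Its pass by the study's rule rested on these 5 reads, and it was lost on leaving out any Mock library, d0 replicate 1 or 2 or d28 replicate 1.

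PCDHB2 (ENSG00000112852, chr5:141094615-141098703), a beta gene, had 1, 6 and 2 reads in Mock, 2, 1 and 3 in d0, 12, 7 and 5 in d3 and 6, 3 and 3 in d28. Normalized, d3 was at 9.24, 5.99 and 3.96 and d28 at 3.17, 2.11 and 4.37, and d3 lay above all d0 samples (2.49, 1.42 and 3.88) but overlapped with Mock (1.50, 7.74 and 3.69). The log2 fold change in d28 vs d3 was -1.07 (SE 0.53), with an adjusted p-value of 0.555. In d3 vs d0 it was 1.25 (SE 0.64), with an adjusted p-value of 0.442. The pass by the study's rule in d28 vs d3 was lost without d3 replicate 1, d3 replicate 2, d28 replicate 1 or d28 replicate 2.

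PCDHGB6 (ENSG00000253305, chr5:141408021-141512975), a gamma isoform, had normalized counts of 2.99, 5.16 and 0 in Mock and 6.22, 5.67 and 2.59 in d0. It was at 0.77, 2.57 and 4.75 in d3 and at 2.11, 1.41 and 0 in d28. All d28 samples lay below all d0 samples, on reads of 4, 2 and 0 against 5, 4 and 2. The log2 fold change in d28 vs d0 was -1.62 (SE 0.76), with an adjusted p-value of 0.335. The study's rule was no longer passed without d0 replicate 1, d0 replicate 2, d28 replicate 2 or d28 replicate 3.

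**Figure D1:**
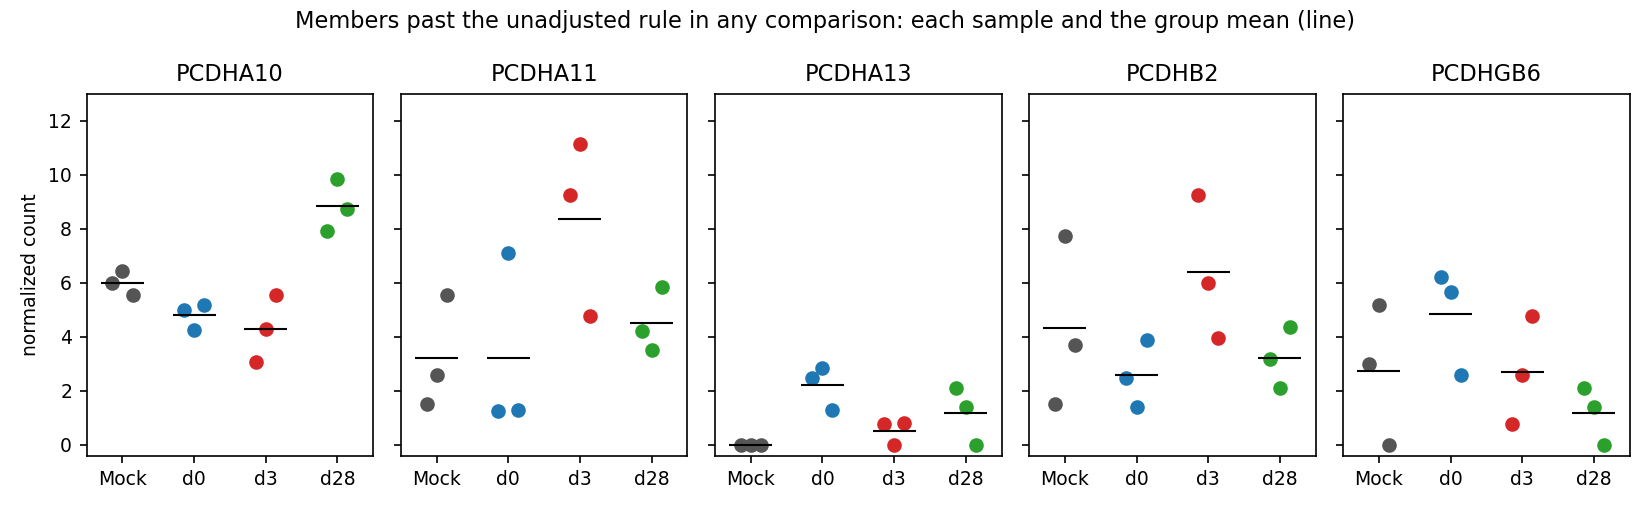
Normalized count of the 5 genes that passed the study's unadjusted rule in any comparison, with 1 point per sample and the group mean as a line. In PCDHA10 the 3 d28 points lie above all others, in PCDHA11 d3 ranges from 4.75 to 11.1, and PCDHA13 is at 0 in the 3 Mock samples.

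Among the C-type genes and the other leading genes of each cluster, PCDHAC1 (ENSG00000248383, chr5:140926299-141012347) held 148 reads, with normalized counts of 13.5, 11.6 and 12.9 in Mock, 9.95, 15.6 and 16.8 in d0, 15.4, 11.1 and 8.72 in d3 and 13.2, 8.44 and 14.6 in d28. The 4 groups overlapped, and the log2 fold changes against Mock were 0.15 (SE 0.40) in d0, -0.09 (SE 0.38) in d3 and -0.10 (SE 0.38) in d28. The pooled ratio to Mock was 1.11 (0.640 to 1.96), 0.937 (0.561 to 1.60) and 0.932 (0.562 to 1.58), and none of the 3 counting intervals reached a 2-fold change in either direction. PCDHAC2 (ENSG00000243232) was at 3.69 ± 3.51 in Mock, 3.96 ± 0.268 in d0, 3.17 ± 1.27 in d3 and 4.37 ± 1.27 in d28 cells, with a single high Mock sample at 7.74.

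Of the other leading alpha genes, PCDHA4 (ENSG00000204967) was at 8.98, 1.29 and 3.69 in Mock, 6.22, 2.84 and 7.77 in d0, 5.39, 5.99 and 5.55 in d3 and 7.91, 7.03 and 7.28 in d28. The replicates were close together in d3 and d28, the groups with more reads, and d28 lay above d3, with a log2 fold change of 0.40 (SE 0.44) and an adjusted p-value of 0.847.

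In the gamma cluster, PCDHGC4 (ENSG00000242419, chr5:141485030-141512975), a C-type gene with 88 reads, was at 7.48, 3.87 and 3.69 in Mock and 13.7, 5.67 and 10.4 in d0. It was at 10.01, 5.99 and 7.13 in d3 and at 7.39, 3.52 and 10.2 in d28. The group means were 5.01, 9.91, 7.71 and 7.03, and the samples of each pair of groups overlapped. Its log2 fold change in d0 vs Mock was 0.98 (SE 0.55), with an adjusted p-value of 0.577 and a pooled ratio of 2.002 (0.916 to 4.71). PCDHGC3 (ENSG00000240184) was at 7.29 ± 2.04 in Mock, 5.25 ± 2.20 in d0, 4.89 ± 1.70 in d3 and 5.63 ± 4.40 in d28 cells, with log2 fold changes against Mock of -0.42 (SE 0.59), -0.54 (SE 0.55) and -0.55 (SE 0.54). PCDHGC5 (ENSG00000240764) was at 2.28 ± 2.90, 3.13 ± 1.64, 1.90 ± 0.581 and 2.13 ± 0.678. PCDHGA11 (ENSG00000253873), a gamma isoform of the A family, was at 10.5, 3.87 and 9.23 in Mock, 6.22, 0 and 6.47 in d0, 7.70, 7.70 and 7.13 in d3 and 4.75, 7.03 and 5.82 in d28. Its d3 samples lay above those of d0 and d28, with log2 fold changes of 0.76 (SE 0.53) in d3 vs d0 and -0.38 (SE 0.43) in d28 vs d3 and adjusted p-values of 0.622 and 0.855.

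In the beta cluster, PCDHB13 (ENSG00000187372), with 60 reads, was at 4.49, 5.16 and 5.54 in Mock, 4.98, 7.09 and 5.18 in d0 and 3.08, 4.28 and 3.96 in d3. In d28 it was at 7.91, 5.62 and 0, and the d3 samples lay below all Mock and all d0 samples. The log2 fold change was -0.41 (SE 0.63) in d3 vs Mock, with an adjusted p-value of 0.870. PCDHB1 (ENSG00000171815), which stands apart from the other beta genes at the proximal end of the cluster and lacks the beta motif, had 1, 2 and 0 reads in Mock, 7, 4 and 0 in d0, 4, 4 and 5 in d3 and 5, 6 and 4 in d28. Its d3 samples (3.08, 3.42 and 3.96) and 3 d28 samples (2.64, 4.22 and 5.82) lay above all Mock samples (1.50, 2.58 and 0). With 3 reads in Mock, the pooled ratio was 2.31 (0.634 to 12.6) in d3 and 2.48 (0.701 to 13.4) in d28, and the adjusted p-values were 0.673 and 0.577.

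**Figure D2:**
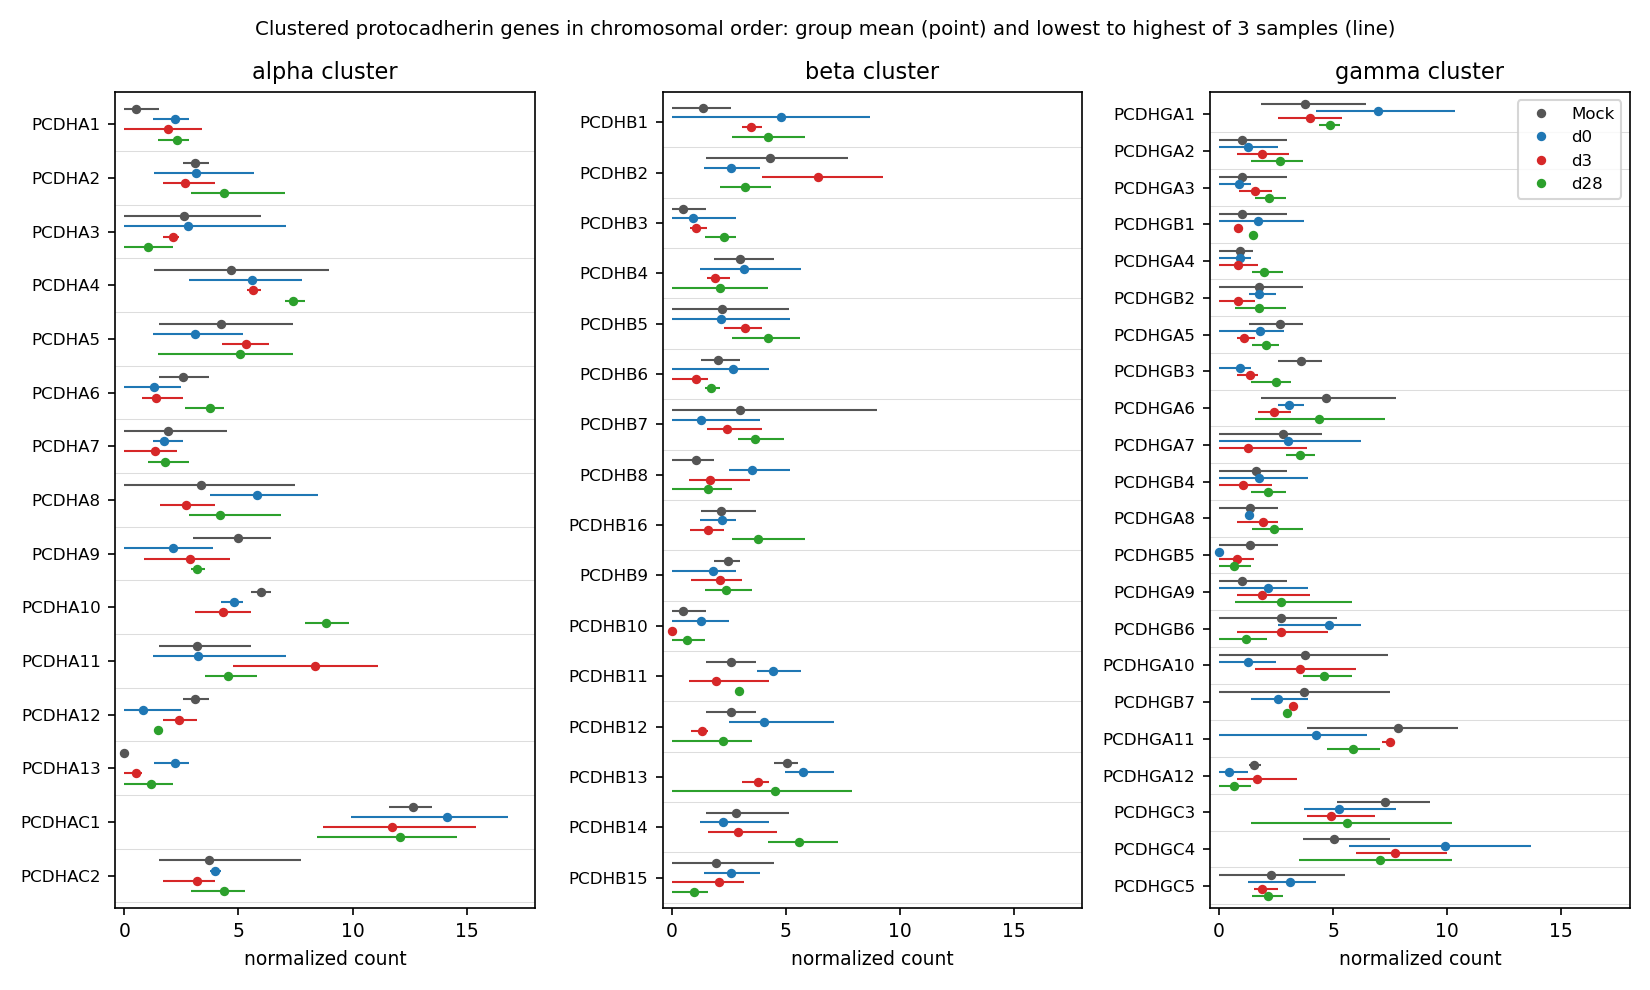
Normalized count of all 53 genes in their order along the chromosome, with the group mean as a point and the lowest to highest of 3 samples as a line. The group means of PCDHAC1 lie between 11.7 and 14.1, and for most genes the lines of the 4 groups overlap. The counted length is unknown, so that levels are read within a gene.

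Across the tested members, non-overlapping groups are set beside their share among all tested genes. In d0 vs Mock, 3 of 46 members were higher in all d0 than in all Mock samples (PCDHA13, PCDHB8 and PCDHB11) and 3 were lower (PCDHA10, PCDHA12 and PCDHGB3), beside 7.37% and 7.07% of all tested genes. In d3 vs Mock, 1 was higher (PCDHB1) and 2 were lower (PCDHB13 and PCDHGB3), beside 9.84% and 6.7%. In d28 vs Mock, 2 were higher (PCDHA10 and PCDHB1) and 1 was lower (PCDHA12), beside 9.93% and 7.79%. In d3 vs d0 there were 2 and 3 (10.0% and 7.12%), in d28 vs d0 5 and 2 (10.2% and 7.97%) and in d28 vs d3 4 and 2 (6.79% and 7.51%). The genes named here beyond the called and leading ones were singled out after their values were seen.

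The median log2 fold change of the 46 members was 0.02 in d0, -0.14 in d3 and 0.30 in d28 against Mock, beside -0.0017, 0.03 and 0.03 for all tested genes. It was -0.21 in d3 vs d0, 0.23 in d28 vs d0 and 0.38 in d28 vs d3, beside 0.02, 0.04 and 0.01. In d28 vs d3, 35 of the 46 were above 0 and 11 below, with 10 and 4 in the alpha, 13 and 2 in the beta and 12 and 5 in the gamma cluster. In d3 vs Mock, 17 were above and 29 below 0. The members were measured in the same libraries, so these counts do not come from independent genes. The share of all tested genes above 0 is not given here. Since the 46 had passed a filter on their level, the same was computed for all 53 genes without a filter, which gave medians of 0.04, -0.15 and 0.33 against Mock and 0.37 in d28 vs d3, beside 0.07 and 0.12 for all genes in d3 and d28 against Mock and 0.01 in d28 vs d3. In d28 vs d0 it gave 0.26 beside 0.16, so that the members' median relative to all genes fell from 0.19 to 0.10. The Mock libraries were the shallowest, with 353430 to 501324 counts, and d28 ranged from 1058754 to 3539937, and the part of depth in these medians was not tested. With the total counts as the only scaling, the median of all tested genes was shifted by -0.45 in d0, -0.34 in d3 and -1.32 in d28 against Mock, and the members' medians relative to it were 0.03, -0.17 and 0.27. In d28 vs d3 the members' median was -0.59 with that scaling, beside -0.99 for all tested genes. The direction of the median itself thus depended on the scaling. Relative to the median of all tested genes it was 0.40 with that scaling and 0.37 with TMM factors. The comparisons that share a group are not independent, and no p-value is given for the members as a group.

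**Figure D3:**
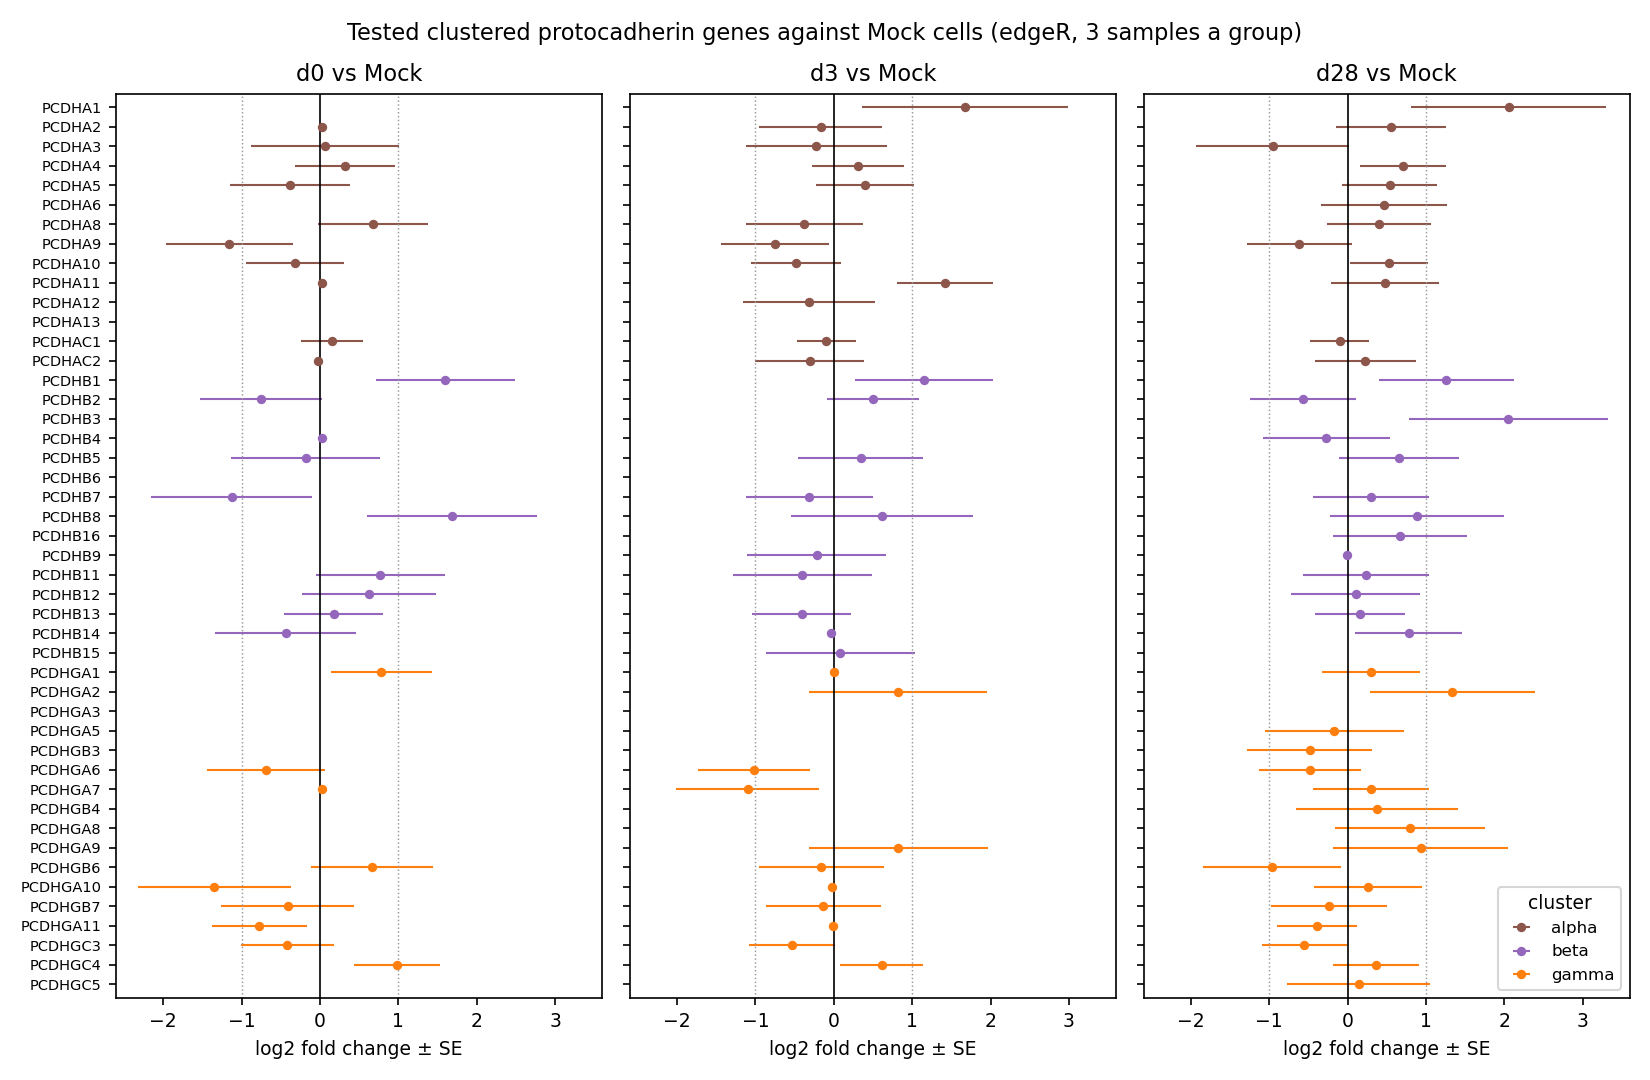
Log2 fold change with SE against Mock (edgeR, TMM factors) for the tested genes in chromosomal order, coloured by cluster, with dotted lines at 1 and -1. A gene is drawn only where a sample of the 2 groups had more than 3 reads and neither group was at 0 (29 genes in d0, 33 in d3 and 41 in d28), and no SE is drawn within 0.05 of 0. Most SE bars cross 0, and 0 of the 46 tested genes passed an adjusted p-value below 0.05.

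Other genes of the same family and region were counted in the same way. Among 20 regulators of the clusters (such as CTCF, the cohesin subunits RAD21, SMC1A and SMC3, the silencing factor SMCHD1 and the DNA methyltransferases) 0 passed an adjusted p-value below 0.05 in any comparison, and the lowest was 0.0848 in d3 vs Mock. Their summed normalized count ranged from 506 to 580 in Mock, 537 to 613 in d0, 631 to 644 in d3 and 623 to 660 in d28 samples, so that all d3 and d28 samples lay above all Mock and d0 samples. Among 29 tested genes that flank or interrupt the clusters in 5q31 (such as TAF7, DIAPH1 and HDAC3) 0 passed, with the lowest adjusted p-value at 0.173 in d28 vs Mock. Their sum ranged from 677 to 760 in Mock, 765 to 811 in d0, 714 to 748 in d3 and 673 to 700.3 in d28 samples, and the d0 samples lay above all others and the d28 samples below all d0 and d3 samples. These sums were not tested and are given with TMM factors only. With the total counts as the only scaling, the median of all tested genes was shifted by -0.34 in d3 vs Mock and -1.32 in d28 vs Mock. It was shifted by -0.88 in d28 vs d0 and -0.99 in d28 vs d3. The 5 pseudogenes of the clusters were too low to be compared, with 2 of them tested and 0 called, and their summed normalized count was 9.19 ± 1.80 in Mock, 5.65 ± 1.22 in d0, 6.97 ± 0.147 in d3 and 8.89 ± 1.59 in d28 cells. The 11 HEK293T markers gave 0 calls in the 6 comparisons.

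Of 16 tested protocadherins and related cadherins outside the clusters, PCDH9 and PCDH10 passed an adjusted p-value below 0.05. PCDH9 passed in d0, d3 and d28 vs Mock, and PCDH10 in d0 and d3 vs Mock only. Of all tested genes, 0.609%, 1.27% and 1.45% passed in d0, d3 and d28 vs Mock. PCDH9 (ENSG00000184226), a solitary delta-protocadherin, was at 214, 153 and 151 normalized counts in Mock, 315, 349 and 289 in d0, 256, 276 and 286 in d3 and 292, 285 and 296 in d28. With TMM factors, all 9 samples with MLL-AF4 lay above the 3 Mock samples. In d0, d3 and d28 vs Mock taken singly, 7.37%, 9.84% and 9.93% of all tested genes were higher without overlap. The log2 fold change of PCDH9 was 0.87 (SE 0.13) in d0, 0.66 (SE 0.13) in d3 and 0.74 (SE 0.13) in d28, with adjusted p-values of 5.07e-08, 1.99e-04 and 3.13e-06. PCDH10 (ENSG00000138650), of the same subfamily, was at 80.8, 89.0 and 73.8 in Mock, 133, 125 and 136 in d0, 119, 133 and 106 in d3 and 96.6, 106 and 103 in d28. It rose by 0.68 (SE 0.16) in d0 and 0.54 (SE 0.15) in d3 on the log2 scale, with adjusted p-values of 0.00434 and 0.0325. With group means of 173 to 317 normalized counts for PCDH9 and 81.2 to 131 for PCDH10, both were far more deeply covered than any clustered member, and the difference between them and the clustered genes in response was not tested. Both genes are given with TMM factors only. With the total counts as the only scaling, the median of all tested genes was shifted by -0.45 in d0, -0.34 in d3 and -1.32 in d28 against Mock.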

How the data were processed

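The authors prepared ATAC-Seq libraries with the transposase from isolated nuclei and deposited a single table that gives raw read counts for each gene. The submitters' processing notes name bcl2fastq, Bowtie2, HTSeq and the build GRCh38. Versions, the interval counted, the read shift, the treatment of duplicates and of reads shared by genes are not given in the sources used here. The protocol in the labels also mentions RNA purification.

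The deposited counts went into edgeR 4.0.16 under R 4.3.3 (quasi-likelihood test, all 12 samples in 1 fit, genes kept where a group mean exceeded 2 normalized counts, then TMM factors) and, as an alternative, DESeq2 1.42.0, which the study used. SE is the log2 fold change divided by the root of F. Exact intervals on pooled counts are at 95%. Figures were drawn with matplotlib 3.10.9. The test was also run on simulated counts, with changes planted only in genes at a higher level than most members. That run therefore does not show how well the test detects changes in the members.

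The rule for the members used gene symbols only, but it and the lists were set with earlier results of these data known. Named were members called by adjusted p-value or the study's rule, the 3 with the highest mean in each cluster, the C-type genes and PCDHB1, and list genes called by adjusted p-value. Replicates of a group differed by slightly more than sampling noise (chi-square per degree of freedom 1.05 to 1.28 over 12 pairs). The promoter sequences used had no entry for 6 members: PCDHA3, PCDHA13, PCDHB6, PCDHB11, PCDHGA12 and PCDHGC5. No window is therefore shown for PCDHA13, which passed the study's rule.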

Additional observations from a re-analysis of the deposited data

How the results depend on the processing

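No member passed an adjusted p-value below 0.05 under any alternative except with the total counts as the only scaling, where 10 members were lower in d28 vs Mock, 4 in d28 vs d0 and 6 in d28 vs d3, together with a shift of the median of all tested genes by -1.32, -0.88 and -0.99. The same scaling gave 3, 0, 12, 2, 9 and 6 members by the study's rule in d0, d3 and d28 vs Mock, d3 vs d0, d28 vs d0 and d28 vs d3, and summed log2 ratios against Mock in d0, d3 and d28 of -0.45, -0.37 and -1.14 (alpha), -0.18, -0.39 and -1.05 (beta) and -0.53, -0.56 and -1.28 (gamma). By the study's rule, DESeq2 and a stricter filter on low counts (filterByExpr, which left only PCDHAC1) gave 0 in each comparison. Fitting only the groups compared gave 0 in d0 vs Mock and 2 in d3 vs d0, no filter gave 2 in d3 vs d0 and 2 in d28 vs d0, and RLE factors gave 1 in d28 vs d3. Apart from the effect of a stricter filter, the cause was not tested. Leaving out mitochondrially encoded genes, or the leading gene of each cluster from its sum, changed no result beyond the spread.

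With single libraries left out, the adjusted counts remained at 0 to 0, and the counts by the study's rule ranged from 0 to 3, 0 to 2, 0 to 5, 1 to 2, 0 to 3 and 0 to 3 in the order above. The 5 in d28 vs Mock came without Mock replicate 1 and were all higher in d28 (PCDHA1, PCDHA4, PCDHB3, PCDHB7 and PCDHGA2). The 3 in d0 vs Mock came without d0 replicate 3, the 3 in d28 vs d0 without d0 replicate 3, and the 3 in d28 vs d3 without d3 replicate 3 or d28 replicate 3. The summed log2 ratios ranged in d0, d3 and d28 from -0.12 to 0.13, -0.07 to 0.08 and 0.15 to 0.29 (alpha), 0.13 to 0.38, -0.17 to 0.06 and 0.15 to 0.40 (beta) and -0.20 to 0.10, -0.30 to -0.01 and -0.08 to 0.25 (gamma). Replicate numbers did not pair the samples (correlations of deviations between -0.153 and 0.0824), and adding a replicate block to the model gave 0 members by adjusted p-value and 1, 1, 0, 1, 1 and 2 by the study's rule, the same counts as without it.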
